A study of Bos taurus with 25 samples.

Results

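The genes described here encode enzymes that transfer a methyl group from S-adenosylmethionine (SAM) to a substrate: PEMT, GAMT, NNMT, DNMT1, DNMT3A, DNMT3B, PRMT1 and HNMT. They were found on the array by the accession that the array annotation gives to each probe, matched to a current bovine gene symbol. Of these 8 genes, 6 were matched, by 12 of the 43653 probes, and NNMT and DNMT3A were not analysed here because no probe was matched to them. DNMT1 had 4 probes, GAMT, PEMT and PRMT1 had 2 each, and HNMT and DNMT3B had 1 each. Expression was measured in the liver of 12 and the mammary gland of 13 lactating, multiparous Holstein cows, biopsied 64 ± 3 days after calving, and 12 cows gave both tissues. All cows were injected every week with 5 mL, which held saline for control cows (Ctl), 320 mg of folic acid (vitamin B9), 10 mg of cyanocobalamin (vitamin B12), or both vitamins (B9 + B12). The groups had 3, 3, 4 and 2 liver arrays and 3, 3, 4 and 3 mammary arrays, in that order, and each array held the RNA of a single cow. The comparisons ask whether the vitamin supplements changed these enzymes in either tissue and how the tissues differed.

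SAM is made from methionine, and it gives its methyl group to lipids, small molecules, proteins and nucleic acids. The methionine is in part regenerated from homocysteine with a methyl group carried by folate, in a reaction that needs vitamin B12, which ties these enzymes to both vitamins. Once the methyl group is given, S-adenosylhomocysteine remains, which inhibits most of these enzymes until it is cleaved. In the liver, the syntheses of creatine and of phosphatidylcholine are known as large uses of SAM. GAMT makes creatine from guanidinoacetate. PEMT converts phosphatidylethanolamine to phosphatidylcholine, a phospholipid of membranes, lipoproteins and milk fat globules. HNMT inactivates histamine, and NNMT methylates nicotinamide. PRMT1 methylates arginines of proteins. DNMT1 copies DNA methylation onto the newly made strand, and DNMT3A and DNMT3B set new DNA methylation.

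The probes of PEMT, GAMT, PRMT1, DNMT1 and HNMT were called well above background by the image software on all 25 arrays, and no member spot was saturated or called an outlier. In the liver, the arrays of cow 57 (B9) and cow 32 (B9 + B12) stood apart, with a median correlation over all probes with the other liver arrays of 0.972 and 0.973, against 0.989 to 0.992 for the other arrays. In the mammary gland, this correlation ranged from 0.986 to 0.991. The labelled tissues carried their markers. All 8 hepatocyte markers were higher in the liver. FGB, ALB and TF differed by 11.18, 10.79 and 10.64 on the log2 scale, and in the mammary gland FGB was well above background on 4, ALB on 10 and TF on 13 of 13 arrays. Likewise, all 7 mammary epithelial markers matched on the array were higher in the mammary gland. With both tissues normalized together by quantiles, CSN1S2, CSN3 and LALBA led (liver minus mammary gland, -11.73, -11.21 and -10.99). BTN1A1 (-10.96), well above background on 1 of 12 liver arrays, reached -16.70 under another scaling. The arrays of both tissues also held signal of the other tissue's marker genes. Within each liver group, 6 of 7 mammary epithelial markers were well above background on all arrays. Within each mammary group, 5 to 7 of 8 hepatocyte markers were. The mean log2 level of the mammary epithelial markers ranged from 7.71 to 10.22 over the liver arrays, and was highest for cow 36 and cow 37 (9.98), both of the B12 group. The mean of the hepatocyte markers ranged from 7.86 to 10.15 over the mammary arrays and was highest for cow 57 (B9). These are bulk biopsies, in which fewer cells of a type and less RNA per cell cannot be told apart.

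GAMT and PEMT, the enzymes of creatine and phosphatidylcholine synthesis, were higher in the liver than in the mammary gland, with both of their probes and under all 4 scalings of the arrays that were compared. A probe was called different at an adjusted p of at most 0.05 (limma, Benjamini-Hochberg over all probes) and a difference of at least 2-fold. DNMT1 was called higher in the mammary gland with 2 of its 4 probes, but with quantiles within each tissue its difference was on the side of the liver. PRMT1, HNMT and DNMT3B were not called. In all, 6 of the 12 member probes were called. Over all probes, 18.7% were called, with 8.8% higher in the liver and 9.89% higher in the mammary gland. A difference past the call threshold was therefore common on the array.

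For the comparison of tissues, the arrays of both tissues were put on 1 scale by quantile normalization, and levels are log2 intensities. On this scale, the probe of GAMT with the highest mean intensity (A_73_P123491) had a level of 15.06 on the lowest, 15.66 on the median and 16.01 on the highest of the 12 liver arrays. In the mammary gland, its level was 11.13, 11.37 and 12.00 on the lowest, median and highest of the 13 arrays. The tissues did not overlap. The means were 15.61 ± 0.26 (SD, n = 12) and 11.40 ± 0.21 (SD, n = 13). The log2 difference was 4.21 (SE 0.10, adjusted p = 2.43e-18 by limma), or 18.5-fold. The other probe of GAMT gave a log2 difference of 4.29 (SE 0.10), and 1.59% of all probes had a larger difference towards the liver.

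PEMT also did not overlap between the tissues. Its brighter probe (A_73_102178) had log2 levels of 11.33, 11.78 and 12.19 on the lowest, median and highest liver array and of 9.70, 10.13 and 10.42 in the mammary gland. The log2 difference was 1.72 (SE 0.10, adjusted p = 2.83e-12 by limma), or 3.29-fold. Its other probe differed by 1.95 (SE 0.08, adjusted p = 3.84e-14). The size of both differences depended on the scaling, and their direction did not. With quantiles within each tissue, GAMT was 54.8-fold and PEMT 9.56-fold higher in the liver.

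The difference was present in each cow. Among the 12 cows with both tissues, the log2 level of GAMT was higher in the liver by 3.49 in the cow with the smallest and by 4.64 in the cow with the largest difference (mean 4.20 ± 0.34, SD). For PEMT the within-cow difference ranged from 1.08 to 2.17 (mean 1.65 ± 0.30, SD). All 12 cows had the higher level in the liver for every probe of both genes, with p = 0.000488 by the exact sign-flip test, two-sided, which is the smallest p that 12 cows allow. It was also present on each of the 4 slides that held both tissues, where it was 3.77 to 4.57 for GAMT and 1.39 to 1.85 for PEMT. The highest mammary levels of GAMT were 12.00 in cow 32 (B9 + B12), 11.56 in cow 39 (B9) and 11.51 in cow 57 (B9), where the mean of the hepatocyte markers was 8.33, 8.13 and 10.15. The part of these markers in the mammary level of GAMT was not tested.

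**Figure D1:**
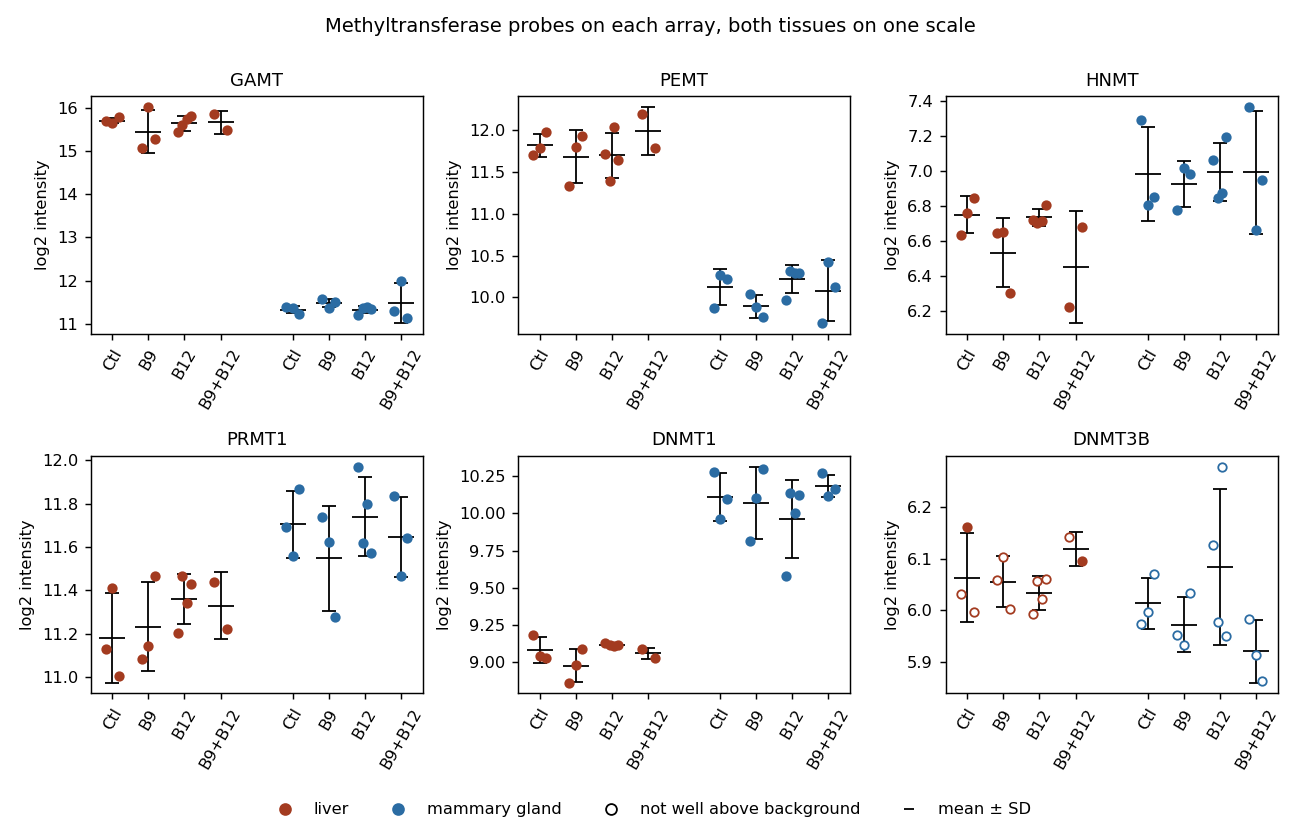
Log2 intensity of the main probe of each gene on every array (points), by tissue and treatment, with the arrays of both tissues normalized together, and the mean ± SD of each group (black). GAMT and PEMT sit in separate ranges in liver and mammary gland, each treated group overlaps the Ctl group of its tissue, and DNMT3B is near background on nearly all arrays (open points).

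**Figure D2:**
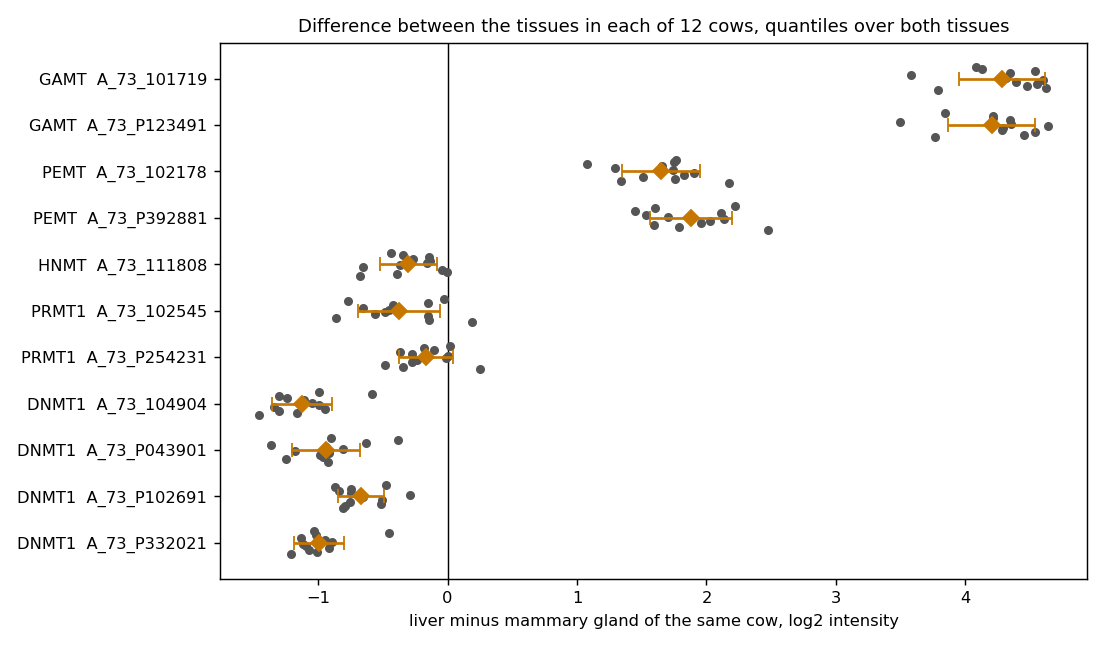
Liver minus mammary gland log2 intensity of the same cow, for 12 cows (grey points) and the 11 probes well above background, with the mean ± SD in orange, on the scale of quantiles over both tissues. On this scale all cows lie to the right of 0 for GAMT and PEMT, and all lie to the left for DNMT1, whose direction is the opposite with quantiles within each tissue.

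DNMT1, PRMT1 and HNMT, which methylate DNA, proteins and histamine, differed less between the tissues than GAMT and PEMT. DNMT1 and HNMT were lower in the liver with each scaling except quantiles within each tissue, which gives each tissue its own scale and moved most called probes towards the liver, and PRMT1 had either sign. DNMT1 (A_73_P332021) had log2 levels of 8.87, 9.09 and 9.18 on the lowest, median and highest liver array and of 9.58, 10.12 and 10.30 in the mammary gland. With quantiles over both tissues, its log2 difference was -1.02 (SE 0.06, adjusted p = 1.55e-11 by limma), lower in the liver in 12 of 12 cows (p = 0.000488, exact sign-flip test). With quantiles within each tissue it was 0.29, higher in the liver. The median raw signal of this probe, before any normalization, was 797.5 on liver and 660 on mammary arrays. The fit without the mammary array of cow 42 (Ctl) gave a difference of -1.0 and that without cow 57 (B9) -0.99, both just under 2-fold. This probe was also not called with the cow as a fixed block (-0.99) or with the 75th percentile of the normexp signal (-0.91), while DNMT1 kept a call by another probe in both. With the latter scaling the other probes differed by -1.055, -1.033 and -1.142 and were called, and with the processed signal all 4 probes were (-1.129 to -1.386). The other probes of DNMT1 differed by -1.16, -0.95 and -0.63 with quantiles over both tissues, and by 0.15, 0.17 and 0.06 with quantiles within each tissue.

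For PRMT1 (A_73_102545), log2 levels of 11.01, 11.28 and 11.47 on the lowest, median and highest liver array overlapped those of 11.28, 11.64 and 11.97 in the mammary gland. Its log2 difference was -0.38 (SE 0.07, adjusted p = 0.000103 by limma) with quantiles over both tissues, below 2-fold. It was 0.03 with scaling of the normexp signal by the 75th percentile and 1.22 (adjusted p = 3.07e-12 by limma) with quantiles within each tissue, where PRMT1 was called higher in the liver. With quantiles over both tissues it was lower in the liver in 11 of 12 cows (p = 0.00439, exact sign-flip test). The other probe of PRMT1 differed by -0.16 (SE 0.06, adjusted p = 0.0321 by limma) and was lower in 9 of 12 cows (p = 0.0205, exact sign-flip test). The median raw signal was 4431 on liver and 1922 on mammary arrays. HNMT had log2 levels of 6.23, 6.69 and 6.85 in the liver and 6.67, 6.95 and 7.37 in the mammary gland, with a median raw signal of 91.75 and 63.5. Its log2 difference was -0.36 (SE 0.08, adjusted p = 0.000674 by limma) with quantiles over both tissues and 0.16 (adjusted p = 0.0574) with quantiles within each tissue. With quantiles over both tissues it was lower in the liver in 12 of 12 cows (p = 0.000488, exact sign-flip test).

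The scaling moved the array as a whole. The median log2 difference of all probes was -0.03 with quantiles over both tissues, -0.80 with the 75th percentile of the normexp signal, -0.48 with the 75th percentile of the processed signal and 0.38 with quantiles within each tissue. The share of called probes that were higher in the liver was 47.1%, 19.3%, 33.4% and 90.2%, in the same order. Relative to the median of all probes, GAMT was higher in the liver by 4.23 to 5.41 and PEMT by 1.74 to 2.88 over these 4 scalings. The main probe of DNMT1 lay below that median in all 4 (-0.995 to -0.091) and so did HNMT (-0.67 to -0.17), whereas PRMT1 lay on both sides of it (-0.36 to 0.84).

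**Figure D3:**
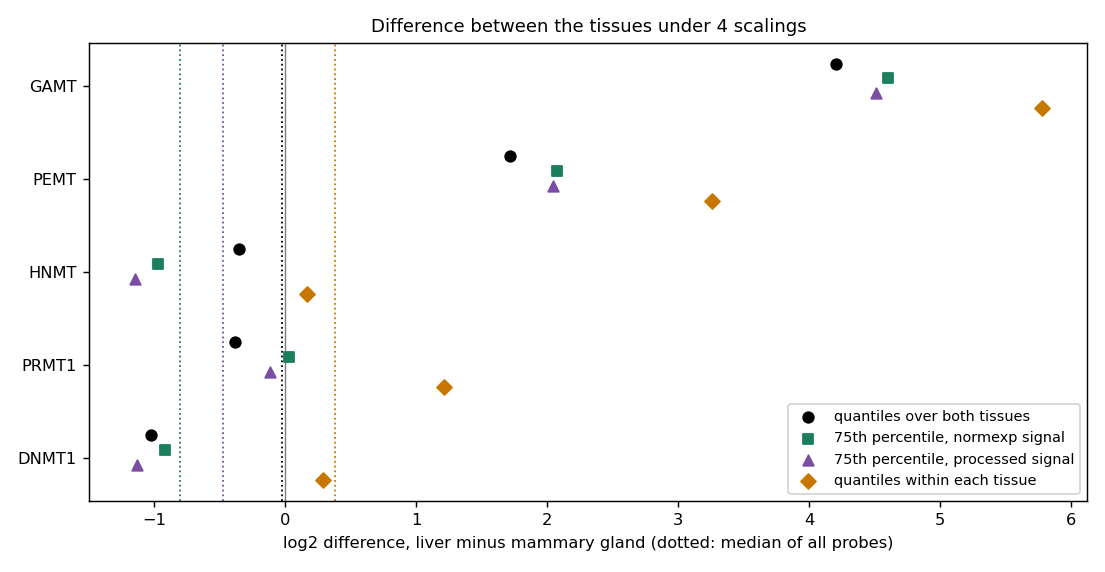
Log2 difference between liver and mammary gland (horizontal axis) of the main probe of the 5 genes other than DNMT3B (vertical axis) under 4 scalings of the arrays (markers), with the median of all probes under the same scaling as a dotted line. GAMT and PEMT stay to the right of 0 and of every dotted line, whereas DNMT1, HNMT and PRMT1 fall on both sides of 0.

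The transcript of DNMT3B was near the limit of detection. Its probe was well above background on 2 of 12 liver arrays (Ctl cow 43 and B9 + B12 cow 38) and on 0 of 13 mammary arrays. The median raw signal was 32 on liver and 25 on mammary arrays, over local backgrounds of 18 and 17. For DNMT3B, values near background enter the counts and medians over the members, and no fold difference of its own is given.

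Genes that supply SAM or act beside these enzymes also differed between the tissues. A gene was counted as called when any of its probes was, and values are those of its brightest probe. Among 13 genes of SAM supply and removal on the array, 6 were called higher in the liver (5 by the brightest probe alone) and 2 higher in the mammary gland. By the same rule, 13.3% of the 11068 genes with a symbol were called higher in the liver, 15.2% higher in the mammary gland and 28.4% in either direction. The largest differences towards the liver were those of BHMT, which remethylates homocysteine with betaine, MAT1A, the hepatic methionine adenosyltransferase, and AHCY, which cleaves S-adenosylhomocysteine. Their log2 differences were 7.96, 7.07 and 4.56, and BHMT, which was well above background on 3 of 13 mammary arrays, ranged from 7.85 to 11.93 over the 4 scalings. Towards the mammary gland the largest were AHCYL2 (-1.98), MAT2B (-1.08), a regulatory subunit of the methionine adenosyltransferase found outside the liver, and MAT2A (-0.58, not called), its catalytic subunit. With quantiles within each tissue, MAT2B and MAT2A had positive differences, of 0.34 and 1.26, and 10 genes of the list were called higher in the liver and 0 lower, against 41% and 4.63% of all genes.

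Among 17 genes of substrates and partners, 8 were called higher in the liver and 2 higher in the mammary gland, against 13.3% and 15.2% of all genes. With quantiles within each tissue the counts were 14 and 2, against 41% and 4.63% of all genes. MAOB, which oxidizes amines, and GATM, which makes the guanidinoacetate used by GAMT, were higher in the liver by 6.09 and 5.61 on the log2 scale, and GATM was well above background on 5 of 13 mammary arrays. AOC1, the diamine oxidase that degrades histamine, was not well above background on any mammary array and was at least 25.1-fold higher in the liver, computed with quantiles over both tissues against the lowest signal well above background on each array. Its measured log2 difference ranged from 4.27 to 9.49 over the 4 scalings. The creatine transporter SLC6A8 and the histamine receptor HRH1 were higher in the mammary gland under all 4 scalings, with log2 differences of -2.80 and -2.76, but their size depended on the scaling (-4.36 to -1.93 and -6.45 to -2.11), and HRH1 was well above background on 6 of 12 liver arrays. BTG1, which binds PRMT1, had a difference of -0.40 that was not called and was 1.09 with quantiles within each tissue.

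Among 25 other SAM-dependent methyltransferases on the array, 4 were called higher in the liver (3 by the brightest probe alone) and 2 higher in the mammary gland. These 6 of 25 genes are near the share of 28.4% over all genes. AS3MT, which methylates arsenic, was higher in the liver by 2.80 on the log2 scale. INMT, which methylates indoles, was not well above background on any mammary array and was at least 3.25-fold higher in the liver with quantiles over both tissues, and its measured log2 difference ranged from 1.04 to 5.37 over the 4 scalings. The histone methyltransferases EZH2 and KMT5A were higher in the mammary gland, with log2 differences of -2.91 and -1.74. EZH2 was called under all 4 scalings, whereas KMT5A was not called with quantiles within each tissue (-0.31). Further, the RNA methyltransferase FTSJ1 had a difference of -1.0 that was not called and was 0.31 with quantiles within each tissue. The counts of this list moved with the scaling. They ranged from 3 to 13 genes higher in the liver and from 1 to 7 higher in the mammary gland. Over the same scalings, 13.3% to 41% of all genes were called higher in the liver and 4.63% to 34.6% higher in the mammary gland. The median log2 difference of the main probes was 0.01 for this list, -0.14 for the members, 0.41 for SAM supply and removal and 0.65 for substrates and partners, against -0.03 for all probes.

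Markers of other cell types differed as well. Of all genes with a symbol, counted by any called probe, 13.3% were higher in the liver, 15.2% were lower and 28.4% differed either way. Of macrophage and blood markers, 4 of 6 were called higher in the liver, led by CD68 (2.11), and 0 were lower. Of fibroblast markers, 5 of 6 were called higher in the mammary gland (4 by the brightest probe alone), led by LUM and COL1A2 (-3.64 and -3.15). COL3A1 and DCN were called under 3 of the 4 scalings and had differences of up to 0.10 and 0.06. Of 5 adipocyte markers, FABP4 and LPL (-9.07 and -8.32) were higher in the mammary gland and CIDEC (1.97) in the liver. Among 4 mast cell markers, TPSB2 was higher in the mammary gland (-2.28), and among 4 markers of proliferation 0 were called by limma (5 of their 6 probes had an unadjusted p below 0.05, as 65.5% of all probes did). By their brightest probes, BIRC5, CCNB1 and PCNA were called under 1 of the 4 scalings and CDK1 under 2, with log2 differences of up to 1.22, 1.23 and 1.10 for the first 3 and down to -1.71 for CDK1. Their part in the differences of the methyltransferases was not tested.

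The vitamin treatments were not followed by a called change of any of the 6 methyltransferases, in either tissue. Each treatment was compared with Ctl on arrays normalized within the tissue. With limma, 0 of the 6 genes were called with B9, B12 or B9 + B12 in either tissue, and 0 of 12 probes had an unadjusted p below 0.05 in any of these 6 comparisons. Over all probes, 0.00229% (1 probe) were called in the liver with B12 and 0% in the other 5 comparisons, whereas an unadjusted p below 0.05 was found for 3.54% (B9), 2.12% (B12) and 5.72% (B9 + B12) of all probes in the liver and for 2.55%, 2.28% and 1.95% in the mammary gland. The Cyber-T test called 0 of the 6 genes. Of all probes it called 0.0115% (B9), 0.0987% (B12) and 0.0505% (B9 + B12) in the liver and 0.0115%, 0.0229% and 0.0138% in the mammary gland. With it 1 member probe, that of DNMT3B in the mammary gland with B9 + B12, had an unadjusted p under 0.05 (0.0319). The lowest adjusted p of a member was 0.687 (limma), for HNMT in the liver with B9 + B12.

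The intervals of these changes were narrower than the call threshold. For the 11 probes well above background in 6 comparisons, the log2 fold changes ranged from -0.38 to 0.22, with 34 above and 32 below 0. All 66 of the 95% intervals from limma, which were not adjusted for the number of comparisons, lay within 2-fold of no change. The one that reached farthest from 0 was that of HNMT in the liver with B9 + B12, to a 1.71-fold lower level. This limit holds for the offset of 50 and all arrays, since the HNMT change itself was -1.27 with the processed signal. Of 72 exact permutation tests, two-sided, 0 had a p below 0.05, and the smallest was 0.114. No such test could reach 0.05, since the smallest p it allows is 0.2 with 2 treated arrays, 0.1 with 3 and 0.0571 with 4.

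**Figure D4:**
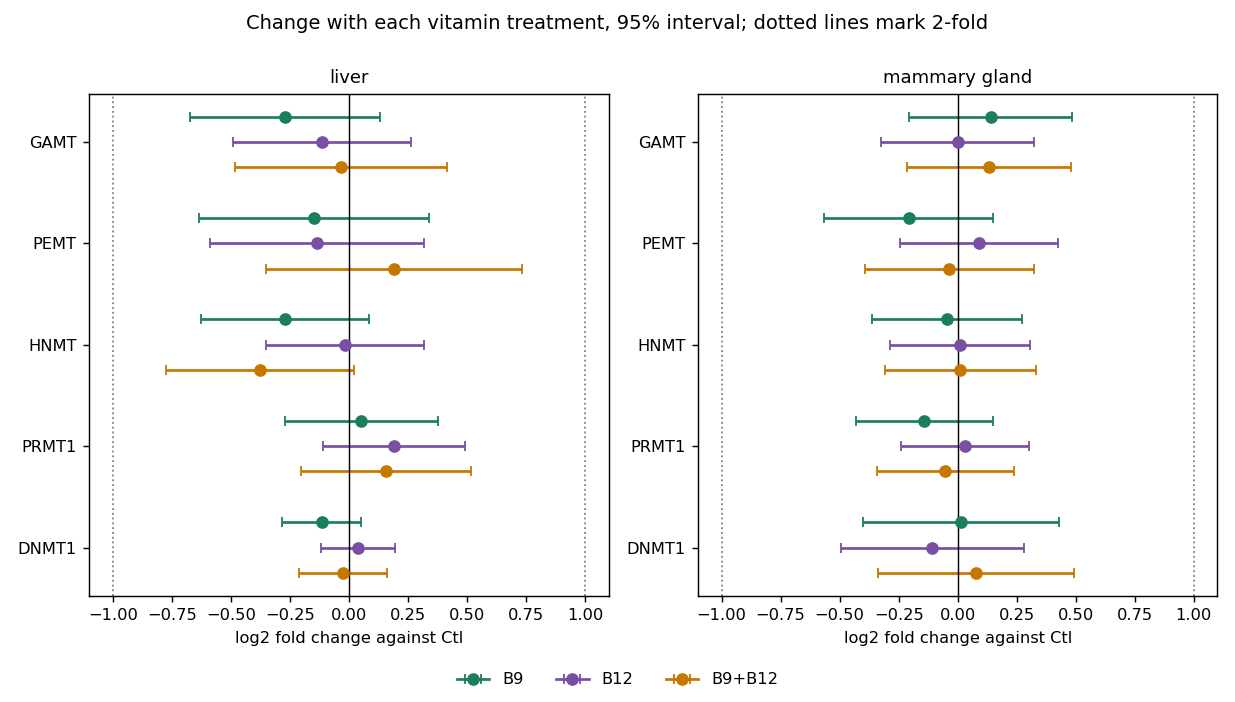
Log2 fold change of the main probe of the 5 genes other than DNMT3B with B9, B12 or B9 + B12 against Ctl (points), with 95% intervals from limma, in liver (left) and mammary gland (right). All intervals include 0 and lie inside the dotted lines at 2-fold.

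GAMT did not separate any treated group from Ctl. Its log2 levels in the liver, on the scale of the liver arrays (A_73_101719), were 16.54, 16.60 and 16.47 in Ctl cows and 15.96, 16.65 and 16.19 in B9 cows. They were 16.15, 16.56, 16.42 and 16.56 in B12 cows and 16.70 and 16.30 in B9 + B12 cows. Each treated group overlapped Ctl, and the Ctl cows were closer together (SD 0.07) than those of any treated group (SD 0.19 to 0.35). The log2 fold changes were -0.27 (SE 0.18) with B9, -0.11 (SE 0.17) with B12 and -0.03 (SE 0.20) with B9 + B12. The last rested on 2 arrays, was -0.23 without cow 32, and ranged from -0.23 to 0.37 over all alternatives. The change with B9 ranged from -0.46 to -0.03 and that with B12 from -0.18 to -0.02.

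Mammary GAMT levels (A_73_P123491) were 10.64, 10.60 and 10.49 in Ctl cows, 10.79, 10.62 and 10.74 in B9 cows, and 10.46, 10.61, 10.62 and 10.59 in B12 cows. The B9 + B12 cows had 10.56, 11.17 and 10.39, and cow 32 had the highest level of all mammary arrays. The changes against Ctl were 0.14 (SE 0.16), -0.00 (SE 0.15) and 0.13 (SE 0.16) on the log2 scale, in the order B9, B12 and B9 + B12. Over all alternatives, the change with B9 + B12 ranged from -0.10 to 0.29.

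PEMT levels of each treated group also overlapped those of Ctl in the liver. With the brighter probe (A_73_102178) they were 12.56, 12.65 and 12.86 in Ctl cows and 12.14, 12.66 and 12.82 in B9 cows. The B12 cows had 12.58, 12.22, 12.93 and 12.48, and the B9 + B12 cows 13.11 and 12.65. The log2 changes were -0.15 (SE 0.22), -0.14 (SE 0.20) and 0.19 (SE 0.24), in the same order of treatments. The change with B9 + B12 was -0.04 without cow 32 and -0.06 without the 3 liver arrays scanned on a later day, and that with B9 was 0.39 with the slide as a fixed block. With the other probe of PEMT (A_73_P392881), both B9 + B12 arrays (12.70 and 12.84) lay above all 3 Ctl arrays (12.69 for the highest), a log2 change of 0.22 (SE 0.24, adjusted p = 0.76 by limma). It was the 1 member probe of 12 whose arrays did not overlap between treatment and Ctl, in a comparison where 21.8% of all probes did not overlap.

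The mammary gland had PEMT levels (A_73_102178) of 9.22, 9.59 and 9.53 in Ctl cows, 9.37, 9.23 and 9.11 in B9 cows, and 9.31, 9.63, 9.60 and 9.61 in B12 cows. Those of the B9 + B12 cows were 9.05, 9.72 and 9.45. All groups overlapped with Ctl, and the log2 changes were -0.21 (SE 0.16), 0.09 (SE 0.15) and -0.04 (SE 0.16). No treatment set any of the 12 member probes apart from Ctl in this tissue, where 6.99% (B9), 3.88% (B12) and 6.89% (B9 + B12) of all probes were apart. Of the liver comparisons, those of B9 (8.45% of all probes) and B12 (4.98%) also had 0.

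The lowest log2 change of any member was that of HNMT with B9 + B12 in the liver, where the only 2 arrays of the group lay apart. Its log2 levels in the liver were 6.87, 7.03 and 7.14 in Ctl cows and 6.98, 6.96, 6.97 and 7.09 in B12 cows. They were 6.88, 6.89 and 6.45 in B9 cows and 6.35 and 6.93 in B9 + B12 cows. The lowest arrays of these groups were those of cow 57 and cow 32, which were also the arrays least correlated with the other liver arrays. The log2 change with B9 + B12 was -0.38 (SE 0.18, adjusted p = 0.687 by limma). It was -0.09 without cow 32 and -0.66 without cow 38, each of which left a single array in the group. With the processed signal the change was -1.27 (adjusted p = 0.636). Over all alternatives it ranged from -1.27 to -0.03 (75th percentile of the normexp signal) and was not called. With B9 the change was -0.27 (SE 0.16, adjusted p = 0.906 by limma), and it ranged from -0.85 with the processed signal to -0.13 without cow 57, with a lowest adjusted p of 0.255.

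Across both groups that received vitamin B9, HNMT differed in the liver by -0.32 (SE 0.12) from the groups that did not, with an unadjusted p of 0.0222 and an adjusted p of 0.491 (limma). In this contrast 9.43% of all probes had an unadjusted p below 0.05 and 0% were called. The difference was -0.24 without cow 57, -0.17 without cow 32 and -0.48 with the slide as a fixed block. Over all alternatives it ranged from -0.99 with the processed signal to -0.065 with the 75th percentile of the normexp signal, with a lowest adjusted p of 0.089. Mammary HNMT was at 6.94, 6.55 and 6.59 in Ctl cows, 6.53, 6.72 and 6.69 in B9 cows, 6.76, 6.58, 6.61 and 6.86 in B12 cows, and 7.0, 6.44 and 6.67 in B9 + B12 cows. Each treated group overlapped Ctl, and the changes were between -0.05 and 0.01 on the log2 scale (SE 0.14 for each).

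PRMT1 levels in the liver (A_73_102545) were 11.93, 12.24 and 11.80 in Ctl cows and 11.89, 11.95 and 12.30 in B9 cows. In B12 cows they were 12.01, 12.30, 12.16 and 12.25, and in B9 + B12 cows 12.27 and 12.03. All treated groups overlapped Ctl, with log2 changes of 0.05, 0.19 and 0.16 (SE 0.13 to 0.16). With B9 the change was -0.07 without cow 57 and 0.36 with the slide as a fixed block. With B12 it ranged from 0.095 to 0.312 over all alternatives, and with B9 + B12 it was 0.04 without cow 32. In the mammary gland, the levels of 10.91, 10.79 and 11.06 in Ctl cows overlapped those of 10.95, 10.85 and 10.53 in B9 cows, 11.15, 10.84, 10.998 and 10.80 in B12 cows, and 11.03, 10.699 and 10.86 in B9 + B12 cows. Across both B9 groups, the other probe of PRMT1 (A_73_P254231) differed in the mammary gland by -0.19 (SE 0.06, unadjusted p = 0.014, adjusted p = 1 by limma) and the other probe of PEMT by -0.19 (SE 0.08, unadjusted p = 0.0378, adjusted p = 1). In that contrast 3.45% of all probes had an unadjusted p below 0.05 and 0% were called.

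DNMT1 levels in the liver (A_73_P332021) were 9.83, 9.68 and 9.66 in Ctl cows, 9.48, 9.61 and 9.73 in B9 cows, and 9.73 and 9.67 in B9 + B12 cows. The 4 B12 cows lay between 9.75 and 9.77. The changes were -0.11, 0.04 and -0.03 (SE 0.07 to 0.08), and each treated group overlapped Ctl. In the mammary gland (A_73_104904), the levels were 9.63, 9.31 and 9.44 in Ctl cows, 9.21, 9.40 and 9.80 in B9 cows, 8.92, 9.54, 9.43 and 9.52 in B12 cows, and 9.73, 9.37 and 9.52 in B9 + B12 cows. The changes were 0.01, -0.11 and 0.08 (SE 0.18 to 0.19).

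The effects of the vitamins were also tested for an interaction and for a difference between the tissues. With limma, the interaction of B9 and B12 called 0 of the 6 genes in each tissue (0% of all probes in each), as did the contrasts of any B12 against no B12 (0% in each). None of the 12 probes had an unadjusted p below 0.05 in these 4 contrasts, where 4.05% (interaction, liver), 3.16% (interaction, mammary gland), 2.88% (B12, liver) and 1.58% (B12, mammary gland) of all probes did. For the difference of an effect between liver and mammary gland, 0 of the 6 genes were called with B9, B12 or B9 + B12 (0% of all probes in each), and 0 of the 12 probes had an unadjusted p below 0.05, against 2.36%, 1.82% and 4.25% of all probes. The smallest was 0.0865 (adjusted p = 1), for PRMT1 with B9. Of 33 intervals of these differences, 31 lay within 2-fold, and that of GAMT with B9 reached farthest, to 2.11-fold.

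The wider lists had no called gene with the treatments either. Of 25 other SAM-dependent methyltransferases, 13 genes of SAM supply and removal and 17 of substrates and partners, 0 were called by limma or Cyber-T. This held in each of the 6 comparisons with Ctl, where limma called 0% to 0.00229% of all probes and Cyber-T 0.0115% to 0.0987%. At an unadjusted p below 0.05, limma had 0 to 4 of 58 probes of the other methyltransferases, with the 4 (6.9%) in the mammary gland with B9 + B12, where 1.95% of all probes passed. It had 0 to 4 of 35 probes of SAM supply and removal, with the 4 (11.4%) in the liver with B12, where 2.12% of all probes passed. For substrates and partners it had 0 to 3 of 39 probes, with the 3 (7.69%) in the liver with B9 + B12, where 5.72% of all probes passed. Probes of a gene share their target, and these counts carry no test of the lists. In the liver with B12, 5 of 22 probes of the mammary epithelial markers (22.7%) passed, with a median log2 change of 1.68. With B9 + B12, 7 of 35 probes of the fibroblast markers (20%) passed. So did 2 of 9 of the macrophage and blood markers (22.2%) and 4 of 29 of the hepatocyte markers (13.8%). Their part in these counts was not tested. The median log2 change of the main probes of the members in the liver was -0.13 (B9), -0.03 (B12) and 0.02 (B9 + B12), and for mammary arrays -0.04, 0.02 and -0.01, against medians of 0.00 to 0.02 over all probes.

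Probes of the same gene followed each other from array to array to different degrees. The 2 probes of GAMT correlated with r = 0.90 over the 12 liver arrays and 0.97 over the 13 mammary arrays, and those of PEMT with 0.74 and 0.62. For PRMT1, r was 0.435 over the liver and 0.445 over the mammary arrays. The 6 pairs of DNMT1 probes had r from 0.04 to 0.59 in the liver and from -0.40 to 0.96 in the mammary gland, where A_73_104904 and A_73_P332021 had the highest. The arrays share their labelling and normalization, and these values are descriptions.

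The transcripts that followed each methyltransferase most closely from cow to cow were taken as those with the highest correlation of the deviations from the group means. They were chosen among 8942 genes (liver) and 8473 genes (mammary gland) that were well above background on all arrays of the tissue. For GAMT they included NUP155 (r = 0.916), of the nuclear pore, over the 12 liver arrays, and were PMPCB (0.918) and PTPN6 (0.886) over the 13 mammary arrays. For PEMT they were PPP1CA (0.966), a catalytic subunit of a protein phosphatase, and CLN6 (0.945) in the liver, and AGA (0.935) and RETREG1 (0.905) in the mammary gland.

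For HNMT, DNTTIP2 (r = 0.988) and BCLAF1 (0.965) in the liver and B4GALT4 (0.948) and AOC3 (0.946) in the mammary gland were the closest. Those of PRMT1 were RAP2B (0.971) and LTB4R (0.945) in the liver and TEX261 (0.965) and CIAO2B (0.958) in the mammary gland. Those of DNMT1 were WDR45B (0.959) and SPATA2 (0.95) in the liver and AEBP2 (0.961) and CLPTM1L (0.931) in the mammary gland. These are the highest of all those correlations over 12 or 13 arrays that share their labelling and normalization, and they are given as descriptions. The liver deviations of HNMT were largest in cow 57 (B9) and in cows 32 and 38, the 2 B9 + B12 cows. Deviations of 2 arrays from their mean are equal in size and opposite in sign.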

How the data were processed

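Total RNA of liver and mammary biopsies was hybridized on single-colour Agilent bovine arrays, 1 array per cow and tissue. The authors deposited the scanner output (Feature Extraction 10.7.3.1 per the file headers), which gives spot and local background intensity per array before any normalization. Background-corrected, normalized log2 values were deposited by the authors as well. Normexp with offset 16 followed by quantiles came within 0.00185 (liver) and 0.000951 (mammary gland) of that table, as median differences, and the table served as an alternative.

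The median intensity was corrected with normexp (offset 50) and normalized by quantiles, within a tissue for treatments and over both tissues for their comparison. Levels of these scales cannot be set against each other, and the offset makes fold changes of dim probes, such as that of HNMT, smaller. Outlier spots were left out and spots of a probe averaged, which gave 43653 probes, of which 53.9% were paired with a current symbol, through a table of another genome build, and positions are therefore left out. Liver arrays had a signal over background of 2.3 to 10.5, mammary arrays one of 2.92 to 5.06, and the number of arrays limits the precision.

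Treatments were compared by limma 3.58.1 (R 4.3.3) on all arrays of a tissue, and tissues on all 25 arrays in 8 groups, with Benjamini-Hochberg adjustment over all probes, and single values by exact permutation tests (scipy 1.17.1). The statistics were tested on simulated data with independent noise and planted changes, which held no arrays that stood apart. Every member is described, by its brightest probe. Of the other lists, genes called with a treatment and the 3 largest differences between tissues in each direction are named, and for likeness the 2 highest correlations, except for some genes that are not reported here. The members and lists were chosen with earlier results of these data known.

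The cow pairs the tissues. The correlation between tissues of its deviations from the group means ranged from -0.246 to 0.259 (median 0.037, above 0.1 in 4 of 12 cows). The alternatives were other intensities, offsets, background correction and scalings, a filter on dim probes, outlier spots kept, slide or cow as a block, array weights, a fit of the compared groups alone, Cyber-T (window 101, confidence 10), the authors' table, the mean of all probes, and each array left out. Leaving out the 3 liver arrays of a slide scanned on a later day and scan day as a block were added after seeing the data.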

Additional observations from a re-analysis of the deposited data

Results flagged for a closer look

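In groups of 4 arrays, an array was marked when its gap to the nearest of the others was over 0.829 of the range of the group (Dixon's test at 95%), which chance gives in about 1 of 20 groups. Only the B12 groups had 4 arrays. Over the 12 member probes, 4 of 24 such groups were marked. In the mammary gland of cow 36, the log2 level of DNMT1 (A_73_104904) was 8.92, with the nearest at 9.43, and that of PEMT (A_73_102178) was 9.31, with the nearest at 9.60. In the liver of cow 52, DNMT1 (A_73_P043901) was at 8.52, with the nearest at 8.86, and HNMT was at 7.09, with the nearest at 6.98. The causes were not tested. In 60 tests of the members by limma, of the interaction of B9 and B12 and of effects between the tissues, 0 reached an adjusted p of 0.05.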

How the results depend on the processing

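With 239 alternative values for the difference of the 6 genes between the tissues, 231 stayed on the same side of the threshold, and 6, all of DNMT1, PRMT1, HNMT or DNMT3B, changed sign. GAMT and PEMT were called higher in the liver under all of them. The count of members higher in the mammary gland, 1, was 2 when the 75th percentile was used to scale the processed signal, where HNMT (-1.15) joined DNMT1, and 0 with quantiles within each tissue or with the probes of a gene averaged. The difference of DNMT1 reversed to 0.29 with quantiles within each tissue, where PRMT1 was called (1.22). The cause was not tested. The main probe of DNMT1 fell under 2-fold with the 75th percentile of the normexp signal (-0.91) and the cow as a fixed block (-0.99), where another probe kept the call, and the mean of the probes was -0.94. With the replicate block of the cow, the pairing gave 4.20 for GAMT and 1.65 for PEMT, and it changed no call other than that of the main probe of DNMT1. Without a single array, the difference of DNMT1 ranged from -1.05 to -0.99.

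For the treatments against Ctl, all 1020 alternative values of the members stayed uncalled, and 71 had another sign than the value reported. The alternatives left the count of called members at 0 in 171 of 171 cases. Scan day as a block and the fit without the slide scanned on a later day were chosen after seeing the data, and HNMT in the liver with B9 + B12 was -0.08 without that slide, within a range of -1.27 to -0.03 over all alternatives. A spot near background, as for DNMT3B, and 2 liver arrays with B9 + B12 limit the precision.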
